A study of Mus musculus with 6 samples.

Results

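Tfap2a, Gata3, Gata4 and Cdh1 encode regulators and an adhesion molecule of the first cell lineages of the mouse embryo, and their transcripts were followed in embryos that developed without sperm. Eggs arrested in metaphase 2 were activated either with cycloheximide (spelled cyclohexamide in the sample labels) or with strontium chloride, and cytochalasin D was given with both. Cycloheximide inhibits translation and so triggers activation with no calcium rise, whereas strontium sets off repeated calcium release in the egg. From the series title, the question was whether activation without calcium leaves a trace in later gene expression. Embryos were kept for 60 h in KSOM medium, and mRNA equivalent to 25 embryos was used for each array. Strain and stage were not stated in the labels. Each group held 3 arrays. Whether these stand for separate cultures was not stated, and p-values then cover only the spread among these arrays, which may be technical.

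Every probe whose platform annotation gives exactly 1 gene symbol, and that symbol is 1 of these genes, was taken. This gave 4 probes, 1 for each gene, of 22132 probes in the table and 6249 with 1 gene. A further 6 probes list 1 of these genes beside another gene (4 for Tfap2a, 1 for Gata3, 1 for Gata4 and 0 for Cdh1) and were not used. All 4 probes were among the 21921 tested, and none was at exactly 0 or at the limits of the ratio on any array. With 1 probe for each gene, no second measurement of the same transcript was at hand.

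The blastocyst forms when outer cells become the trophectoderm, the epithelium that pumps fluid into the cavity and later builds the placenta, and inner cells become the inner cell mass. Tfap2a encodes an AP-2 transcription factor and Gata3 a GATA zinc finger factor, both active in the trophectoderm lineage, where GATA3 acts downstream of TEAD4 together with CDX2. Gata4 encodes a GATA factor of the primitive endoderm, the layer of the inner cell mass that faces the cavity and makes basement membrane. Cdh1 encodes E-cadherin, the calcium-dependent adhesion molecule through which blastomeres flatten against each other at compaction.

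The stretches before the RefSeq starts of Gata3 and Tfap2a are printed because both genes belong to the trophectoderm programme, whose factors bind known motifs. Each line gives the 250 bases before the start (build GRCm38.p6, minus strand, read 5′ to 3′), and capitals mark matches to the motifs searched. Gata3 lies at chr2:9878601-9878850 and the Tfap2a window at chr13:40734921-40735170, the more upstream of 2 starts listed for that gene.
Gata3: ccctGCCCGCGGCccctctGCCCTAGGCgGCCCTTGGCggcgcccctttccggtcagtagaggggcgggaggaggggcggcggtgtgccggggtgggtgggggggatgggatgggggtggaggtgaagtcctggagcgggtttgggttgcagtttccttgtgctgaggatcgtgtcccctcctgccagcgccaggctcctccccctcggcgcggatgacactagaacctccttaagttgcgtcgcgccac
Tfap2a: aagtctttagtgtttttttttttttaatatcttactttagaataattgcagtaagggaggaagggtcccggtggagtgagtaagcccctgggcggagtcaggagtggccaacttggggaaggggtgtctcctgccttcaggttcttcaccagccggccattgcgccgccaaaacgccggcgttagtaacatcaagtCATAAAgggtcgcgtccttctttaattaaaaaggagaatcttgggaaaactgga
The motifs were GGAATG for TEAD factors, AGATAA for GATA factors, GCCNNNGGC for AP-2 factors and TTTATG for CDX factors, each on both strands. Of all 32851 promoter windows of this length, 12.6% held the TEAD letters, 9.99% the GATA letters, 13.7% the AP-2 letters and 10.8% the CDX letters. The Gata3 window held 3 AP-2 matches that did not overlap, GCCCGCGGC, GCCCTAGGC and GCCCTTGGC, which begin 246, 231 and 221 bases before the start. It held 0 matches to the other motifs. The Tfap2a window held 1 CDX match on the opposite strand, CATAAA, which begins 54 bases before the start, and 0 matches to the others. The Gata3 window was 70.0% G and C, above 90.8% of all windows, and the Tfap2a window 47.6%, with a median of 52.4% over all windows. These matches are a description of letters and not of binding.

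Values are log2 ratios of embryo over a commercial mouse reference RNA that was hybridised in the other channel of every array. The direction of the deposited ratio is not stated with the values and was taken as likely. In the opposite case every sign below would turn. Embryo RNA was amplified in 2 rounds and the reference in 1, and no array had its dyes exchanged. A ratio to the reference therefore cannot be told apart from an effect of dye or amplification. The difference between the groups is free of such bias only if it was alike in both groups, which was not tested. In RNA from whole embryos, fewer cells of a type and less RNA per cell cannot be told apart.

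The 6 arrays did not group cleanly by treatment. Across probes, which are not independent replicates, the correlation of array 3 of cycloheximide was 0.909 with array 3 of strontium, and 0.762 and 0.810 with the other cycloheximide arrays. These arrays had the widest ratios, with an interquartile range of 1.60 and 1.59 against 1.11 to 1.41 for the others. Among markers of the early embryo, Tdgf1 reached the highest possible ratio on all 6 arrays. Dppa3 lay between 5.10 and 6.64, and 1 probe of Nanog lay between 0.77 and 1.25, while the other was at exactly 0 on 4 arrays. Zfp42 lay between 0.01 and 0.44 and Tfcp2l1 between 0.21 and 0.63. Of this list 8 of 13 genes were measured, with array medians of 1.61 to 2.00 after cycloheximide and 0.96 to 1.79 after strontium. Tdgf1, Dppa3, Nanog, Zfp42 and Tfcp2l1 were not chosen by the rule for named genes. Marker genes of other cells were measured in part, and some lay above the reference. The fibroblast collagen Col1a1 lay between -6.64 and -3.96. Of the cumulus and granulosa list 3 of 11 genes were measured, with array medians of -0.28 to 0.30 after cycloheximide and -0.47 to -0.12 after strontium. Of the 2 probes of Cyp11a1, a defining marker, 1 was at exactly 0 on 4 arrays and at -2.99 and -2.27 on arrays 1 and 2 of strontium. The other Cyp11a1 probe lay between 0.03 and 1.14. Of the blood list 4 of 9 genes were measured, with array medians of -0.57 to -0.40 and -0.70 to -0.32. One probe of S100a9, a gene of that list, lay between 0.66 and 1.72, and its other probe between -1.01 and -0.45. Of the fibroblast list 2 of 9 genes were measured. Of the adult organ list 5 of 11 were, with array medians of 0.37 to 0.58 after cycloheximide and 0.05 to 0.17 after strontium, which do not overlap. Of these genes, Tat lay between 0.69 and 1.71 and Ins2 between 0.57 and 0.86, both lower after cycloheximide with no overlap, and Syt1 was higher with none. S100a9, Tat and Ins2 were picked after their values were seen. Median differences between cycloheximide and strontium were 0.05 over the probes of 8 embryo genes, -0.18 for fibroblast, 0.07 for cumulus and granulosa, -0.02 for blood and -0.21 for adult organs, where the array medians go the other way. The probes with the smallest p of these lists differed by 0.52 (Dppa2), 0.23 (Col6a1), -0.65 (Gja1), 0.21 (S100a8) and 0.45 (Syt1). The part of other cells in the results below was not tested.

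All 4 genes lay lower after cycloheximide than after strontium, and none passed the test across all probes. Tfap2a and Gata4 differed most, about 2-fold each (2.03 and 2.05), and Gata3 and Cdh1 by 1.41-fold and 1.43-fold. For Tfap2a, Gata3 and Cdh1 every cycloheximide array lay below every strontium array. For Gata4 the arrays overlapped. Of all tested probes 6.04% were lower after cycloheximide with no overlap between the groups, and 5.72% were higher. At an unadjusted p under 0.05 by limma, 3 of the 4 genes were lower, where 2.32% of all probes were lower and 3.70% higher. At an adjusted p of 0.05, 0 of the 4 genes and 0.0% of all probes passed in either direction, with 1319 probes at an unadjusted p under 0.05. The genes were put together after results of these data were known, so their common side is a description. Of all probes 56.7% lay below 0, with a median difference of -0.05.

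**Figure D1:**
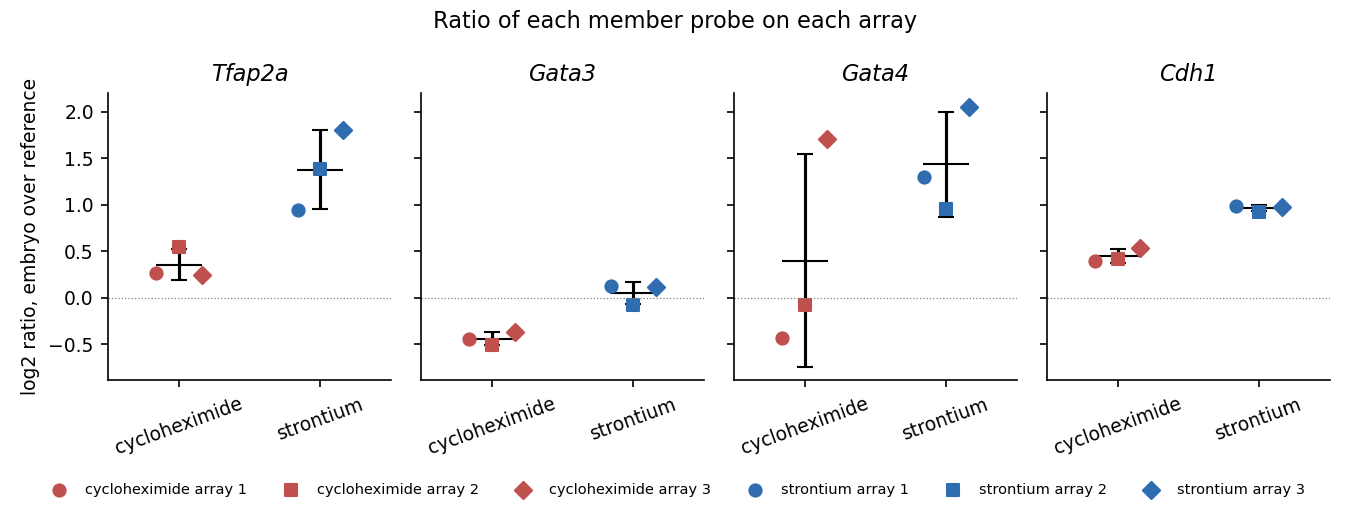
Log2 ratio of embryo over reference RNA (vertical axis) for the probes of Tfap2a, Gata3, Gata4 and Cdh1, with 1 point per array, symbols for the array number, and the mean with SD of the 3 arrays of each group. Tfap2a, Gata3 and Cdh1 show groups that do not overlap, and array 3 of cycloheximide puts Gata4 at 1.70 among the strontium arrays.

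Tfap2a, the AP-2 factor, stood at 0.27, 0.55 and 0.25 on the cycloheximide arrays and at 0.94, 1.39 and 1.80 on the strontium arrays. The groups did not overlap, with 0.40 between the highest cycloheximide and the lowest strontium array, and the strontium arrays were the more spread. The means were 0.35 ± 0.17 and 1.38 ± 0.43 (SD, n = 3 arrays each). The difference was -1.02 (SE 0.26, 95% interval -1.66 to -0.39), with a limma unadjusted p of 0.00763 and an adjusted p of 0.726. Among all tested probes, 1.87% had a difference as low or lower and 1.04% an unadjusted p as small.

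Gata3, the other trophectoderm factor, lay below the reference after cycloheximide and near it after strontium. Its ratios were -0.45, -0.51 and -0.37 after cycloheximide and 0.12, -0.08 and 0.12 after strontium. All cycloheximide arrays lay below the reference and the strontium arrays lay on both sides of 0. The means were -0.44 ± 0.07 and 0.05 ± 0.12 (SD, n = 3 each), and the difference was -0.49 (SE 0.16, 95% interval -0.89 to -0.10). By limma the unadjusted p was 0.0225 and the adjusted p 0.806. A difference this low or lower was found for 12.1% of all probes, so the size of the Gata3 difference was common on these arrays. The spread within groups was small for this probe: 4.79% of probes had a residual SD as small as its 0.097.

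Gata4, the primitive endoderm factor, varied most between arrays of a group. It stood at -0.43, -0.08 and 1.70 on the cycloheximide arrays and at 1.29, 0.95 and 2.05 on the strontium arrays. Array 3 of cycloheximide thus lay above 2 of the 3 strontium arrays, while the other 2 cycloheximide arrays lay below 0. The means were 0.40 ± 1.14 and 1.43 ± 0.56 (SD, n = 3 each). The difference of -1.04 (SE 0.62, 95% interval -2.54 to 0.46) was smaller than the SD of the cycloheximide arrays, with a limma unadjusted p of 0.143 and an adjusted p of 0.866. Its residual SD of 0.90 was as large as or larger than that of 91.1% of probes. The 2 arrays with the highest Gata4 ratio were array 3 of strontium and array 3 of cycloheximide, which also had the widest ratios over all probes. With every array scaled to the same spread the difference was -1.07 and the unadjusted p 0.104.

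Cdh1, the E-cadherin gene, had the tightest values. Its ratios were 0.40, 0.41 and 0.54 after cycloheximide and 0.98, 0.93 and 0.97 after strontium. The strontium arrays spanned 0.06 and the cycloheximide arrays 0.14, with a gap of 0.39 between the groups. The means were 0.45 ± 0.08 and 0.96 ± 0.03 (SD, n = 3 each), and the difference was -0.51 (SE 0.15, 95% interval -0.89 to -0.14). By limma the unadjusted p was 0.0154 and the adjusted p 0.794. Only 1.16% of probes had a residual SD as small as the 0.058 of Cdh1. With the probe's own variance in place of the moderated one, the SE was 0.048 and the unadjusted p 0.000422, and the adjusted p was 0.535. As low a difference or lower was found for 11.3% of all probes.

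**Figure D2:**
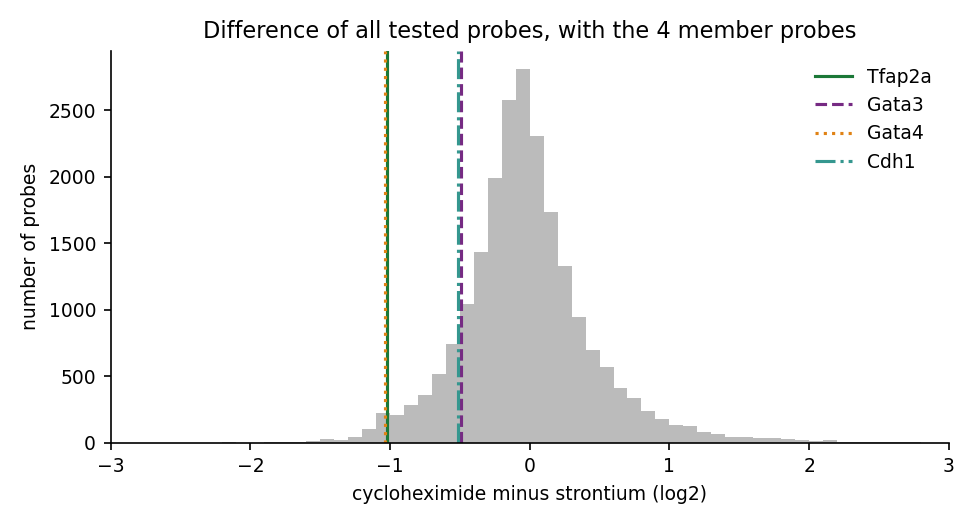
Number of probes (vertical axis) by difference between cycloheximide and strontium in log2 (horizontal axis, bins of 0.1), for the 21921 tested probes, of which 10 lie beyond the limit of 3 on either side and are not drawn. Vertical lines mark the 4 genes: Tfap2a (-1.02) and Gata4 (-1.04) lie in the lower tail, and Gata3 (-0.49) and Cdh1 (-0.51) nearer to the centre.

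The design of 3 arrays against 3 sets a floor on a test of a single probe: the smallest two-sided p of an exact permutation test is 0.1. For a typical probe the 95% interval reached 0.71 to each side of the difference, and the differences of Gata3 and Cdh1 were smaller than this. The intervals of these 2 probes themselves were narrower, -0.89 to -0.10 for Gata3 and -0.89 to -0.14 for Cdh1. The probes also lie apart on the array. Counted by probe number in consecutive lines of equal length, an assumed layout, Tfap2a was on line 12, Gata4 on line 57, Cdh1 on line 73 and Gata3 on line 77. The median differences of these lines were -0.05, -0.09, -0.09 and -0.13, and 0.48% to 3.79% of the probes on each lay on the lower side with an unadjusted p under 0.05. With each line's median subtracted on each array, the differences were -0.97 for Tfap2a, -1.03 for Gata4, -0.45 for Cdh1 and -0.39 for Gata3. The 95% interval of Gata3 was then -0.84 to 0.06, with a limma unadjusted p of 0.0792.

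The 4 genes answered differently to leaving out an array. Without array 3 of cycloheximide, Gata4 lay at -0.26 on average over the 2 remaining cycloheximide arrays against 1.43 after strontium, and its difference grew to -1.69 (SE 0.37), with a limma unadjusted p of 0.00604 and an adjusted p of 0.201. The groups then did not overlap for Gata4, as for 27.6% of all probes on the lower side and 18.0% on the higher. In the same fit 12.9% of all probes lay lower and 6.48% higher with an unadjusted p under 0.05. Without array 1 of cycloheximide the Gata4 difference was -0.62. Without array 3 of both groups it was -1.38, and that of Tfap2a was -0.76. With 1 array left out, Tfap2a moved between -1.24 without array 1 of strontium and -0.81 without array 3 of strontium. Gata3 moved between -0.56 and -0.46, and Cdh1 between -0.56 and -0.49. At an unadjusted p under 0.05, Tfap2a was lower in 6 of the 6 fits that left out 1 array, Cdh1 in 4, Gata3 in 2 and Gata4 in 1, and none passed the adjusted threshold in any of them. Of all 21921 probes, 299 to 2821 were lower at this level in these fits. The most were found without array 3 of cycloheximide, the 1 fit that called Gata4. These fits share most of their arrays, so their counts are not independent. Losing an array also leaves fewer degrees of freedom.

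**Figure D3:**
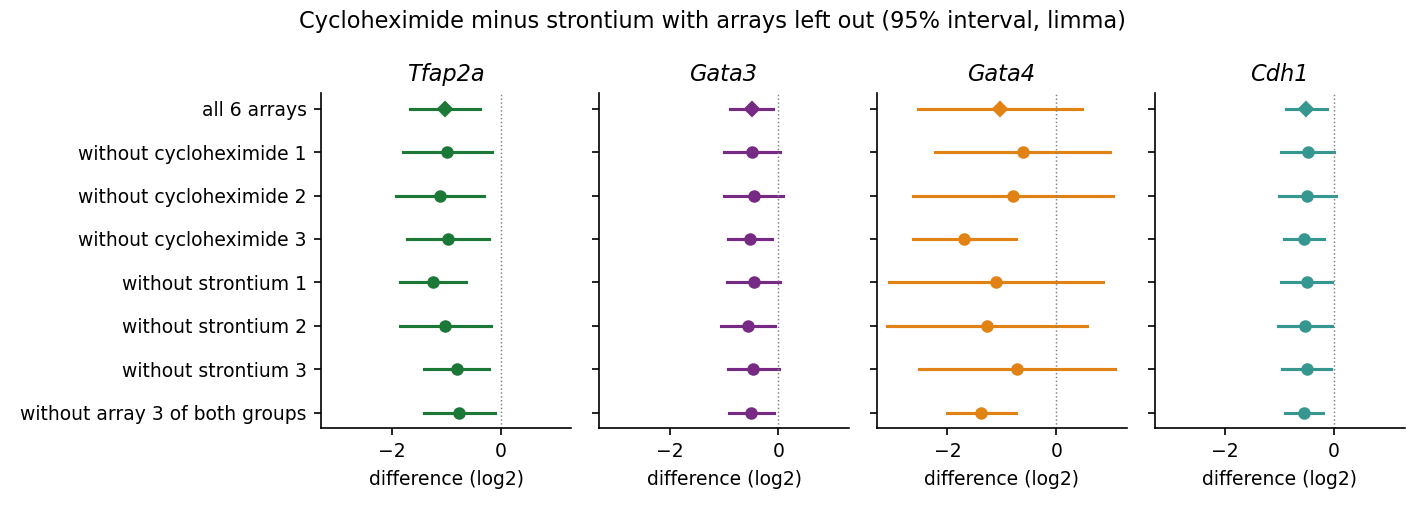
Difference between cycloheximide and strontium in log2 (horizontal axis) with its 95% interval by limma, for each gene with all 6 arrays (diamond), without each array in turn and without array 3 of both groups. Gata3 and Cdh1 keep a similar size in these fits, Tfap2a moves between -1.24 and -0.76, and Gata4 moves between -0.62 and -1.69 with a narrow interval where array 3 of cycloheximide is left out.

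Other genes of the same lineages were read to set the 4 genes beside their partners, which are counted here by probe and without the 4 genes themselves. Of 20 other genes listed for trophectoderm transcription, 7 were measured by 11 probes: Klf5, Rbpj, Cbx5, Sbno1, Ets2, Id2 and Esrrb. The list is loose, since Cbx5 and Sbno1 do not encode DNA-binding factors of this lineage and Esrrb is also among the embryo markers. Of the 11 probes 6 lay on the lower side and 5 on the higher, with a median difference of -0.03 (all probes: 56.7% below 0, median -0.05). Of these, 0 were at an unadjusted p under 0.05. With no overlap, 3 were lower, 1 each of Rbpj, Ets2 and Id2, and 0 higher, against 6.04% and 5.72% of all probes. Ets2 (-0.20, SE 0.15) and Id2 (-0.32, SE 0.21) were picked after their values were seen. Cdx2, Eomes, Gata2, Tead4 and Tfap2c had no probe with 1 gene. The smallest p was that of 1 of the 3 probes of Rbpj, the DNA-binding partner of Notch, with a difference of -2.11 (SE 1.03), where 1 array was at the limit of the ratio. The other probes of Rbpj differed by -0.03 and -0.64.

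Genes of the trophectoderm epithelium lay on both sides of 0. Of 10 probes, 1 for each of 10 genes, 6 lay below 0 and 4 above, with a median of -0.07 and a range from -0.89 (Dsc2) to 0.37 (Bmp4, a signalling ligand). In this list 0 probes had groups that did not overlap and 0 were at an unadjusted p under 0.05. Krt18, a keratin of the first epithelium, stood at 0.28 ± 0.62 and 0.36 ± 0.28 (SD, n = 3 each), a difference of -0.08 whose sign turned without array 2 of cycloheximide or array 3 of strontium. Tjp1, a scaffold of tight junctions, stood at 0.91 ± 0.16 and 0.97 ± 0.11, a difference of -0.06 that turned under scaling. Dsc2, a desmosomal cadherin, had the smallest p of the list, with 1.01 ± 0.69 and 1.90 ± 0.37 and a difference of -0.89 (SE 0.39, limma unadjusted p 0.0633).

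In the primitive endoderm, 12 of 17 probes (16 genes) lay below 0 and 5 above, with a median of -0.25. Sox17, which encodes a factor of the endoderm, stood at 0.791, 0.810 and 1.035 after cycloheximide and at 1.211, 1.100 and 1.045 after strontium. Its groups did not overlap, although the nearest arrays were close, and the difference was -0.24 (SE 0.17). Lama1, a laminin chain of the basement membrane, differed by -0.57 (SE 0.25), with 0.25 ± 0.16 and 0.82 ± 0.41 and no overlap. Nid2, which encodes another basement membrane protein, went the other way, with means of -1.07 ± 0.13 and -1.83 ± 0.21 (SD, n = 3 each) and a difference of 0.76 (SE 0.19, limma unadjusted p 0.00672, adjusted p 0.712). With no overlap, 3 probes of this list were lower (Sox17, Lama1 and Runx1) and 2 higher (Nid2 and Lamb1), against 6.04% and 5.72% of all probes. Lamb1, another laminin chain, differed by 0.63 (SE 0.26) at this probe. Its other probe differed by -0.34 (SE 0.86), with overlapping groups. Runx1 differed by -0.16 (SE 0.16). Lamb1 and Runx1 were picked after their values were seen. Gata6, Pdgfra and Dab2 had no probe with 1 gene.

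Genes that act with E-cadherin lay on both sides of 0. Of 22 probes for 18 other genes of adherens junctions, polarity and compaction, 12 lay below 0 and 10 above, with a median of -0.03. Ctnna1, which encodes the alpha-catenin that links cadherin to actin, stood at -1.51, -2.07 and -1.70 after cycloheximide and at -2.46, -2.34 and -2.15 after strontium. Every cycloheximide array was thus above every strontium array, opposite to Cdh1, with a difference of 0.56 (SE 0.21, limma unadjusted p 0.0381, adjusted p 0.820). On the side of Cdh1, 2 probes were lower with no overlap, those of Rhoa, a small GTPase of the actin cytoskeleton (-0.40, SE 0.17), and Rdx, which encodes radixin (-0.73, SE 0.43). For Rdx the nearest arrays were almost equal, at -1.140 after cycloheximide and -1.139 after strontium. Its strontium arrays spread from -1.14 to 0.51. Ctnna1 was the 1 probe higher with no overlap, against 6.04% of all probes lower and 5.72% higher, and Rhoa and Rdx were picked after their values were seen. Pard6b, a polarity protein of the outer cell surface, differed by 0.43 (SE 0.26), with overlapping groups. No test compared Cdh1 with these genes. Ctnnb1 and Ezr had no probe with 1 gene. Among classical cadherins and catenins, 6 probes of 5 other genes gave 2 below 0 and 4 above, with a median of 0.34. With the probes of a gene averaged, the median of this list was 0.13. The list shares its probes of Ctnnd1, Cdh3 and Ctnna1 with the list above, and its smallest p is that of the same Ctnna1 probe.

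Genes of the Hippo pathway and repressors of Cdh1 gave few differences. Of 15 probes for 14 Hippo pathway genes, 5 lay below 0 and 10 above, with a median of 0.03 and 0 at an unadjusted p under 0.05. Yap1, the coactivator of TEAD factors, differed by -0.12, a sign that turned when array 1 or 2 of cycloheximide or array 3 of strontium was left out. Lats2, the kinase that restrains YAP, differed by 0.78 and turned to -0.39 without array 3 of strontium, where it stood at -3.13. Taok1, a kinase upstream of LATS, had the smallest p in this pathway and a difference of 0.37 (SE 0.21). Of 9 probes for 8 repressors of Cdh1, 5 lay below 0 and 4 above. Snai1, a zinc finger repressor of Cdh1, differed by 0.36 (SE 0.58), and Foxc2 by -0.35 (SE 0.25) at the probe with the smallest p there and by -0.23 (SE 0.25) at its other probe. Zeb1 had no probe with 1 gene.

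Relatives and cofactors were thinly covered. No other GATA gene had a probe with 1 gene, and of 4 probes for cofactors 2 lay below 0, with Zfpm2, which encodes a cofactor of GATA factors, at -0.24 (SE 0.18). No other AP-2 gene had one. Of the AP-2 list only Kctd1, which encodes an inhibitor of AP-2 factors, was measured, by 2 probes. One stood at 0.31, 0.54 and 1.28 after cycloheximide and at 1.54, 1.68 and 1.36 after strontium. These groups did not overlap, and the difference was -0.81 (SE 0.29, limma unadjusted p 0.0297, adjusted p 0.806). The other probe differed by 0.25 (SE 1.28), with 1 array at exactly 0. Across the 9 lists, 0 probes passed the adjusted threshold.

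**Figure D4:**
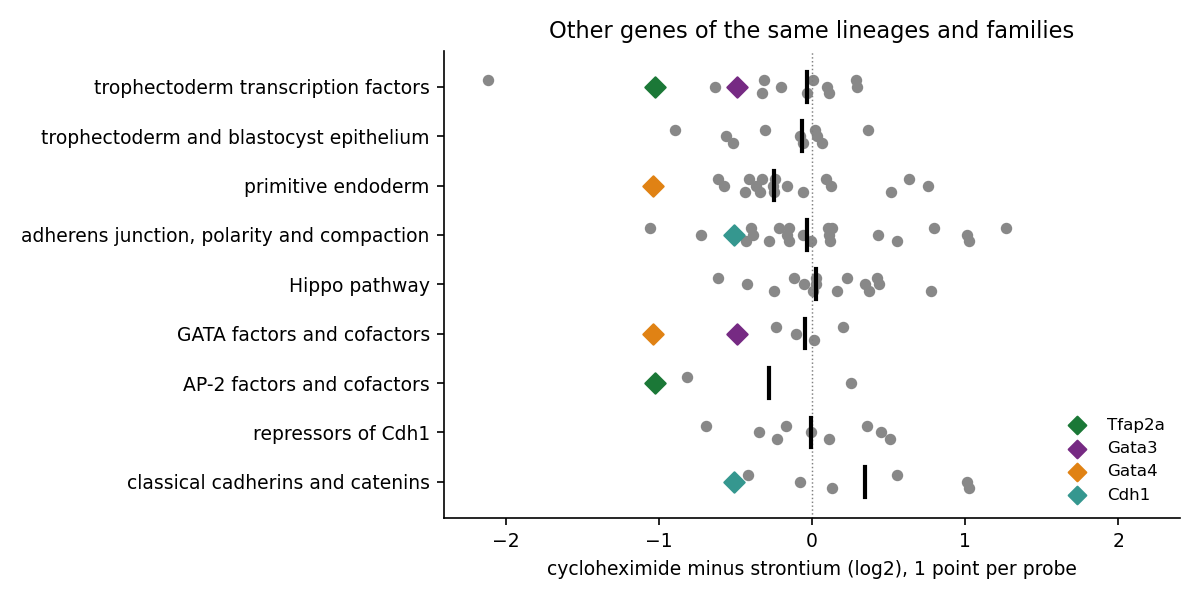
Difference between cycloheximide and strontium in log2 (horizontal axis) for each probe of the 9 gene lists (grey points), with the median of each list as a black bar and the 4 genes as coloured diamonds in the lists that hold them. The medians of the other genes lie between -0.28 and 0.34, and points fall on both sides of 0 in every list.

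To find transcripts with the same course over the arrays, each probe was centred on its mean over the 6 arrays and the root-mean-square difference from each of the 4 genes was taken over 6148 other probes with 1 gene. Since likeness chose them, the match is a description. Nearest to Tfap2a was Zfp503 with a root-mean-square difference of 0.083, where the pattern of Tfap2a itself had a size of 0.58, followed by Adcy5 and Copg2 (0.19 each). Nearest to Gata3 were Tssk3 (0.054), Galnt11 (0.078) and Lfng (0.080), against a size of 0.26. Nearest to Gata4 were Pdcd4 (0.087), Sar1b (0.12) and Ccl20 (0.12), against 0.90, and each of these was also highest on array 3 of both groups. Nearest to Cdh1 were Lfng (0.074), Tmem215 (0.081) and Nphs1 (0.087), against 0.26. Lfng, which encodes a glycosyltransferase that modifies Notch, was thus among the nearest to both Gata3 and Cdh1, whose courses are alike: low on the 3 cycloheximide arrays and high on the 3 strontium arrays with little spread.

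**Figure D5:**
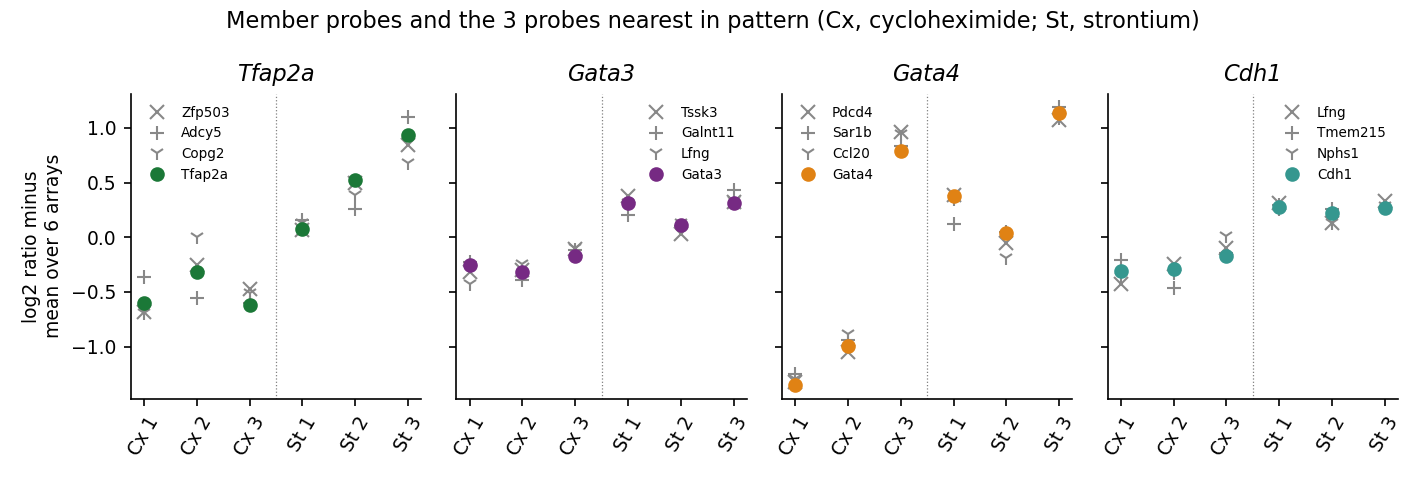
Log2 ratio minus the mean over the 6 arrays (vertical axis) for each array (Cx, cycloheximide; St, strontium), with each of the 4 genes as filled circles and its 3 nearest probes as grey symbols. Gata4 and its neighbours are high on array 3 of both groups, whereas Gata3 and Cdh1 differ mainly by group.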

How the data were processed

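The authors deposited, for each of 6 Agilent 2-colour arrays, a log10 ratio between channels at 22132 probes. Per the labels' protocols, embryo cRNA carried Cy3 and universal mouse reference RNA Cy5. The submitters' processing notes name Agilent Feature Extraction, with no version, background or dye settings. Values lie between -2 and 2 exactly, so larger ratios were reduced to 100-fold. For log2 of embryo over reference, a likely direction, the sign was turned and the scale changed by a factor of 3.32. Probes at 0 throughout (211) were dropped, and other zeros (471 to 755 zeros per array in the whole table) stayed in. Without spot intensities, signal over background is not known. Precision is limited by the number of arrays.

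Probes were named by the supplied platform annotation, and promoters came from RefSeq (GRCm38.p6), with windows printed for Gata3 and Tfap2a but not for Gata4 and Cdh1. The groups were compared per probe with limma 3.58.1 (lmFit, eBayes) in R 4.3.3, p-values adjusted by Benjamini-Hochberg over all 21921 probes tested, a threshold of 0.05 and no further normalization. The fit was tested on simulated data. Python 3.11.15, pandas 2.3.3, NumPy 2.4.6 and matplotlib 3.10.9 were used for the rest. Beyond the 4 genes, the rule for named genes took 21 genes by their role, the probe with the smallest p of each list, and the 3 probes nearest in pattern to each of the 4. The members and lists were chosen with earlier results of these data known. Alternatives were other scalings, filters and variance models, array weights, the replicate number as a block, and leaving out arrays.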

Additional observations from a re-analysis of the deposited data

How the results depend on the processing

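Tfap2a, Gata3, Gata4 and Cdh1 lay lower after cycloheximide in all 20 alternative fits, a side that was in large part fixed in advance. Other probe filters, other variance models, the replicate block and averaging the probes of a gene left each difference unchanged. For Tfap2a, Gata3 and Cdh1, whose groups did not overlap, leaving out arrays could not turn the sign. None passed the adjusted threshold in any fit. The lowest adjusted p by limma was 0.0523 (Cdh1, with array weights), and 0.201 to 0.213 per gene without weights. Over all probes 0 passed except with array weights, where 359 did; the weights ranged from 0.16 (array 3 of cycloheximide) to 22.6 (array 2 of cycloheximide), and the cause was not tested. At an unadjusted p under 0.05 there were 1319 probes, against 7232 with array weights, 4077 without array 3 of both groups (an alternative chosen after seeing the data), 748 to 4242 without 1 array (the highest without array 3 of cycloheximide), and, with fewer features tested, 315 with the probes of a gene averaged and 386 with only probes of 1 gene.

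With the replicate block 2086 probes were at an unadjusted p under 0.05 and 0 passed; the unadjusted p of Gata4 was then 0.0293, against 0.143. Between arrays of the same number, deviations from the group means had correlations of 0.056, 0.38 and 0.50. The value was near 0 for number 1 and higher for numbers 2 and 3, which does not settle whether the numbers are pairs. The labels state no pairs, and the main fit did not use the numbers.

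With each array centred on its median, ratios to the reference fell: Gata3 stood at -0.60 after cycloheximide and -0.13 after strontium, and Cdh1 at 0.29 and 0.77. With the sign not turned, the means after cycloheximide and strontium would be -0.35 and -1.38 for Tfap2a, 0.44 and -0.0511 for Gata3, -0.40 and -1.43 for Gata4, and -0.45 and -0.96 for Cdh1.

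Of 680 alternative differences for 34 other named probes, 12 changed sign. Krt18 gave -0.38 to 0.24 over the fits without 1 array (the highest without array 2 of cycloheximide) and 0.0386 without array 3 of strontium. Tjp1 gave 0.0704 with arrays scaled, 0.0502 with quantile normalization, 0.0892 with line medians subtracted, and -0.13 to 0.0315 without 1 array. Without 1 array Yap1 gave -0.52 to 0.0992 and Lats2 -0.39 to 1.39, and Col6a1 gave -0.15 with arrays scaled. With the probes of a gene averaged, the list medians turned to 0.0370 for adherens junction, polarity and compaction, 0.0531 for repressors of Cdh1 and 0.0260 for blood. Only with array weights did 4 of these probes pass.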

Other observations

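Cdh3, which encodes P-cadherin, another classical cadherin, lay on the opposite side from Cdh1; it was singled out after its values were seen. One of its probes stood at 1.54, 1.23 and -0.76 after cycloheximide and at -0.14, 0.35 and -1.22 after strontium, a difference of 1.01 (SE 0.71). The other stood at 0.13, 0.62 and -1.27, and at -2.24, -0.21 and -1.14, a difference of 1.02 (SE 0.68). The groups overlapped for both probes, with limma unadjusted p-values of 0.204 and 0.181 and adjusted p-values of 0.866. Both differences stayed above 0 in all 20 alternatives, some of which cannot change a difference, such as other variance models or the replicate block. Array 3 of cycloheximide was the lowest of its group for both probes, and without it the differences were 1.73 and 1.57. The difference between the responses of Cdh1 and Cdh3 was not tested.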
